A study of Mus musculus with 24 samples.

Results

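The HCA response of wild-type neurons was read as the difference between wild-type mouse embryonic cortical neurons exposed to homocysteate (HCA) and wild-type neurons of the same kind left untreated. It rests on 8 of the 24 arrays of the study: HCA replicates 1 to 4 and untreated replicates 5 to 8, which lie on chips 2 and 3 of the 3 Illumina Mouse Ref-8 BeadChips, with 2 arrays of each group on each chip. The first chip carried no HCA array and was not used. The other genotype of the study, Atf4 knockout, had 4 HCA and 4 untreated arrays on the same 2 chips, and these 8 arrays enter where the responses of the genotypes are compared. Each array read total RNA of 1 sample. Nothing in the labels tells whether the replicates came from different cultures or animals. The p-values therefore cover only the spread among these samples, which may be technical at least in part. The Y-linked gene Eif2s3y was high on 2 arrays of each wild-type group and low on the other 2, as given below. It was high on all 8 knockout arrays. The sources used here do not give the HCA dose, the length of exposure, the mouse strain or the age of the embryos.

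HCA is a homolog of glutamate that competes with cystine for the cystine/glutamate exchanger. Cells that take up too little cystine run short of cysteine and glutathione and come under oxidative stress. Shortage of an amino acid and other stresses activate kinases of the translation factor eIF2, which lowers protein synthesis as a whole and raises the translation of ATF4. ATF4 is a transcription factor that pairs with C/EBP family members and induces genes of amino acid uptake, amino acid synthesis and tRNA charging. NRF2 is a separate transcription factor of the antioxidant response, with heme oxygenase and glutathione synthesis genes among its targets.

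The mean raw signal of the 8 arrays ranged from 342 to 537 and between 38.4% and 42.6% of the probes were detected. Of 15946 genes named on the array, 7435 had a probe detected on at least 4 of the 8 arrays and were tested, each by its brightest probe. Levels are log2 of the background-corrected, quantile-normalized signal, and every change is HCA minus untreated on that scale. The neuronal markers Dcx, Elavl3, Stmn2, Syn1, Tubb3 and Map2 were detected on all 8 arrays, Elavl4 on 4 HCA and 2 untreated arrays, and Snap25 on none. The endothelial markers Pecam1, Cdh5 and Kdr were detected on none, but Esam, Flt1 and Pdgfrb, of endothelium and pericytes, on at least 4 of the 8. The astrocyte markers Gfap and S100b were detected on none, while Aqp4 and Aldh1l1 were detected on all 8. Markers of dividing cells (Mki67, Top2a, Cdk1) were also detected on all 8. HCA replicate 1 stood apart, with a mean correlation with the other 7 arrays of 0.973 against 0.984 to 0.988 for the others, and the main results are therefore also given without it.

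HCA raised a compact set of genes by up to 5.00-fold and lowered another set by less. At a Benjamini-Hochberg adjusted p under 0.05 (limma, with a chip term) 38 genes were called higher, or 0.511% of those tested, and 31 were called lower, or 0.417%. The highest were Hmox1, Chac1, Eif4ebp1, Nupr1, Mthfd2 and Ddit4, and the lowest Hes5, Cyp26b1, Sox21 and Tril. Of the called genes 31 rose and 13 fell by 1.5-fold or more, and on chips 2 and 3 taken singly all 69 moved the same way. The HCA and untreated arrays did not overlap in level for the 38 higher genes, against 3.5% of all tested genes with every HCA array above, and for 30 of the 31 lower genes (all but Ankrd24), against 4.86% with every HCA array below. The calls rest on the same arrays, so this describes the called genes and adds no support. Of the 38, Slc1a5, Rhbdd1 and Safb2 were detected on no untreated array and passed the detection filter only through the HCA arrays on which they are high, which leaves 35. Over all tested genes the median change was -0.01, and 1053 genes had an unadjusted p under 0.05. The split of the calls moved with the scaling: 55.1% of the calls were higher after quantile normalization, against 83.7% (36 higher, 7 lower) where arrays were centred on their medians, which put the median change of all genes at 0.06.

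**Figure D1:**
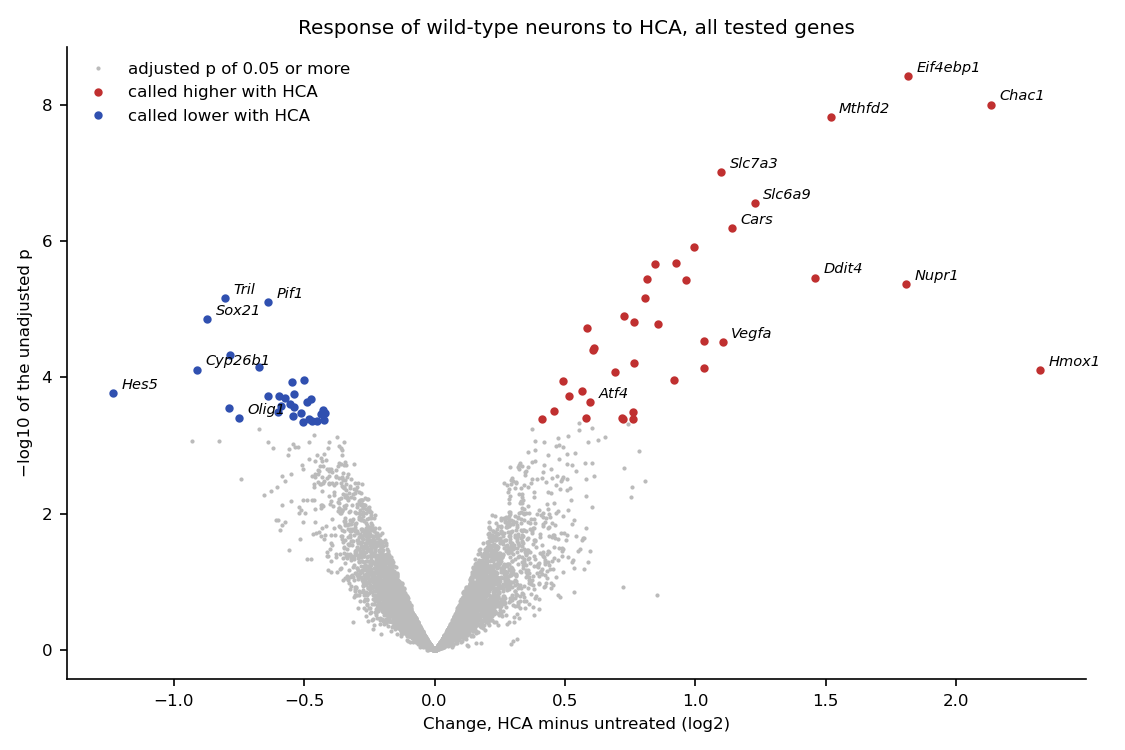
Each point is 1 of the 7435 tested genes, placed by its change with HCA (log2, horizontal axis) and the −log10 of its unadjusted p (vertical axis), with called genes in red (38 higher) and blue (31 lower). The rises extend to a change of 2.32 and the falls to -1.23.

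The size of both sets depended on single arrays and on the arrays fitted. Without HCA replicate 1, 32 genes were called higher and 17 lower, and 44 of the 69 calls (29 higher, 15 lower) remained. Leaving out 1 of the other arrays gave 19 to 34 higher and 3 to 10 lower calls, with the fewest in both directions, 19 and 3, when untreated replicate 6 was left out. Higher calls fell by over 1.5 times without untreated replicates 6 (19), 7 (25) and 8 (21) or HCA replicate 4 (22), and lower calls did so without any one of the 8 arrays. In all 8 of these fits 18 of the 38 higher calls held, namely Asns, Cars, Cebpb, Chac1, Ddit4, Eif4ebp1, Gpt2, Jdp2, Mthfd1l, Mthfd2, Nupr1, Psat1, Shmt2, Slc1a4, Slc3a2, Slc6a9, Slc7a3 and Slc7a5. Of the 31 lower calls, Pif1, Sox21 and Tril held in all 8. In a fit of all 24 arrays, which adds the untreated arrays of chip 1, 31 of the 38 higher calls held and 2 of the 31 lower ones. With median centring 28 and 4 held, and with the array set (chip positions that hold 1 array of each group) as a block 32 and 22.

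Chac1, which degrades glutathione, had levels of 11.26, 11.30, 11.50 and 11.44 on the HCA arrays 1 to 4 and of 9.04, 9.41, 9.42 and 9.09 on the untreated arrays 5 to 8. Every HCA array lay well above every untreated one. The rise was 4.39-fold (log2 change 2.13 ± 0.11, SE, n = 4 per group, adjusted p = 3.71e-05), with changes of 2.05 on chip 2 and 2.21 on chip 3. Eif4ebp1, a repressor of cap-dependent translation, lay at 11.14, 11.27, 11.15 and 11.16 with HCA and at 9.31, 9.23, 9.45 and 9.49 without. Its 4 HCA arrays differed among themselves by less than 0.2, an SD of 0.06, and the rise was 3.52-fold (1.81 ± 0.08, adjusted p = 2.81e-05). Nupr1, a small chromatin protein induced by stress, lay at 8.96, 8.27, 8.24 and 8.84 with HCA and at 6.72, 6.47, 6.95 and 6.94 without. HCA replicates 1 and 4 were the higher pair, the groups did not overlap, and the rise was 3.50-fold (1.81 ± 0.19, adjusted p = 0.00242).

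Mthfd2, a mitochondrial enzyme of folate one-carbon metabolism, lay at 10.50, 10.73, 10.73 and 10.80 with HCA and at 9.16, 9.02, 9.23 and 9.27 without. The groups were tight and apart, and the rise was 2.87-fold (1.52 ± 0.08, adjusted p = 3.75e-05). Ddit4, an inhibitor of the growth kinase mTORC1, lay at 9.29, 8.60, 8.32 and 8.59 with HCA and at 7.40, 7.59, 7.07 and 6.90 without. HCA replicate 1 was the highest, the groups did not overlap, and the rise was 2.75-fold (1.46 ± 0.15, adjusted p = 0.00235).

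**Figure D2:**
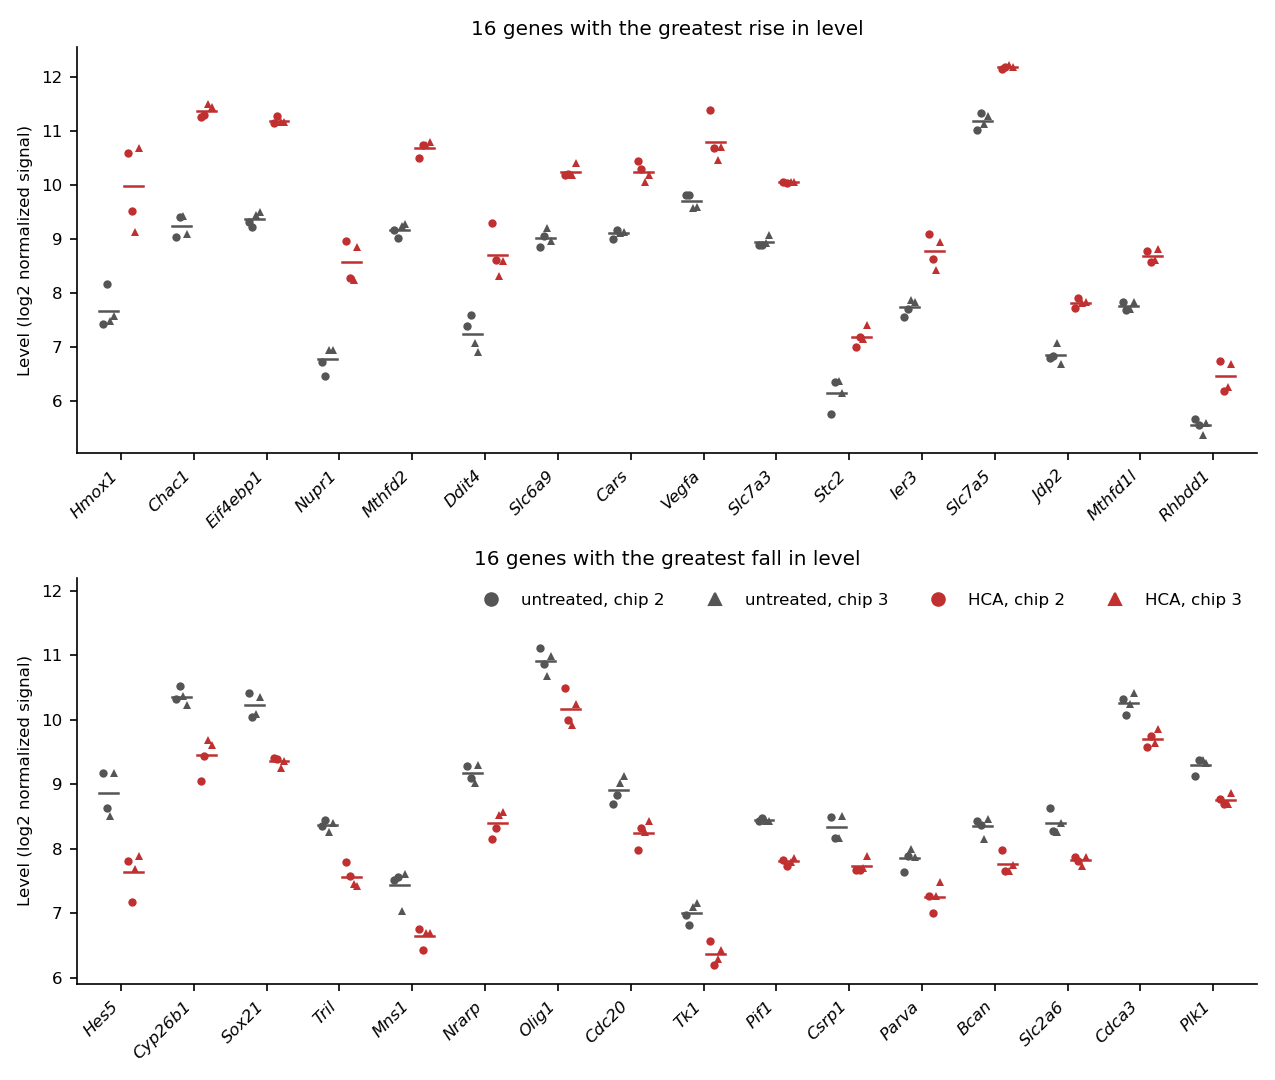
Level of the 16 called genes with the greatest rise (top) and the 16 with the greatest fall (bottom) on each array, in log2 normalized signal, untreated arrays in grey, HCA arrays in red, chip 2 as circles, chip 3 as triangles and group means as lines. HCA and untreated points do not overlap for any gene shown, Rhbdd1 was detected on no untreated array, and Hmox1 shows the widest spread among the HCA arrays, an SD of 0.77.

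The promoters of the raised genes are shown because a short sequence recurs in them. The C/EBP-ATF response element, to which ATF4 and its C/EBP partners bind, has the core TGATGNAA. It was searched on both strands in the RefSeq promoter table of build GRCm38.p6, from 250 bases before to 50 bases after each gene start. Of the 31 called-higher genes with an entry 10 held the core, or 32.3%, against 1 of 28 called-lower genes (3.57%), 2.67% of the 6104 tested genes with an entry and 3.97% of all 32851 windows. In 7 of the 10 genes the match read TGATGCAA. The antioxidant response element core TGACNNNGC, searched the same way, was in 7 of the 31 (22.6%), in 1 of the 28 (3.57%), in 16.5% of the tested genes and in 12.4% of all windows. The 2 cores differ at the fourth base, so they cannot start at the same base of a strand. A match describes the letters in the window and is not a measured binding site, and these genes were chosen by the same arrays as the rise itself. The matches of the 10 genes follow, read 5′ to 3′ on the strand that holds TGATGNAA, with that core in capitals and flanking bases in lower case:
Chac1: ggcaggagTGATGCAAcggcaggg
Nupr1: gccctgtcTGATGCAAtctggccc
Jdp2: gccggggcTGATGCAAcccgtccc
Slc1a4: gctggagaTGATGCAAcgcaggag
Asns: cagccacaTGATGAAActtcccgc
Arid5a: ctaggggcTGATGTAAgaaactca
Eps15: tacagagcTGATGCAActcctcct
Plekhh3: gagacacaTGATGCAAcccgccgc
Aars, first: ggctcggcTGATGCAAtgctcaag
Aars, second: gagcgctcTGATGAAAagtgaccc
Rem2: atgagcagTGATGTAAgcgggatt
The stretches lie at chr2:119351041-119351064 (minus strand) for Chac1, chr7:126625565-126625588 (plus strand) for Nupr1, chr12:85599375-85599398 (plus) for Jdp2, chr11:20332702-20332725 (plus) for Slc1a4 and chr6:7693217-7693240 (minus) for Asns. Those of Arid5a lie at chr1:36307561-36307584 (minus), of Eps15 at chr4:109342921-109342944 (plus), of Plekhh3 at chr11:101171507-101171530 (minus), of Aars at chr8:111033722-111033745 and chr8:111033843-111033866 (both minus) and of Rem2 at chr14:54476078-54476101 (minus). Plekhh3 has 2 overlapping windows in the table that share the match.

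The whole windows of the first 2 genes show where the core sits, here written on the strand of the gene with the match in capitals as it reads on that strand, at position -193 of Chac1 and -110 of Nupr1 relative to the gene start:
Chac1 promoter, chr2:119350992-119351291, plus strand: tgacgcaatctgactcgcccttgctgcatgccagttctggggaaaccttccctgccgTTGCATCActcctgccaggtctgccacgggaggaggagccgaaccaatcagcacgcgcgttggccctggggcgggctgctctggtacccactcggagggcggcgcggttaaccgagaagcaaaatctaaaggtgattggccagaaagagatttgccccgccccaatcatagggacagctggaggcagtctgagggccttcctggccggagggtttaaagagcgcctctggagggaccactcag
Nupr1 promoter, chr7:126625421-126625720, minus strand: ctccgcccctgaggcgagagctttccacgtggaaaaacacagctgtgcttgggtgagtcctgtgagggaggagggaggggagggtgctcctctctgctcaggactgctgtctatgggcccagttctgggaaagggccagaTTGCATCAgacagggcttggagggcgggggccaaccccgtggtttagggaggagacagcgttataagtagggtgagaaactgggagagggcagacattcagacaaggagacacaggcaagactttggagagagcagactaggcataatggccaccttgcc

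Among the regulators and feedback genes of the integrated stress response, 10 of 16 tested members were called higher and none lower, against 0.511% higher over all tested genes. The median change of the list was 0.89, with 0.92 on chip 2 and 0.80 on chip 3, and without HCA replicate 1 again 10 were called. The called members were Chac1, Eif4ebp1, Nupr1, Ddit4, Vegfa, Stc2, Ier3, Jdp2, Cebpb and Atf4. Atf4 lay at 9.68, 9.99, 10.08 and 10.15 with HCA and at 9.47, 9.29, 9.40 and 9.36 without. HCA replicate 1 was the lowest of its group, and the groups did not overlap. The rise was 1.51-fold (0.60 ± 0.10, adjusted p = 0.0372). The call was lost with the array set as a block (adjusted p = 0.0522), with median centring (adjusted p = 0.124) and when any 1 of HCA replicates 2, 3 and 4 or untreated replicates 6, 7 and 8 was left out (adjusted p up to 0.144). Cebpb, a partner of ATF4, rose 1.76-fold (0.82 ± 0.08, adjusted p = 0.00235) and Jdp2, a repressor of the AP-1 family, 1.95-fold (0.96 ± 0.10, adjusted p = 0.00235).

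The secreted factors among them rose about as much. Vegfa, which drives blood vessel growth, lay at 11.38, 10.67, 10.46 and 10.69 with HCA and at 9.81, 9.81, 9.58 and 9.59 without. HCA replicate 1 was the highest, and the rise was 2.15-fold (1.10 ± 0.14, adjusted p = 0.00991), lost only without untreated replicate 6 (adjusted p = 0.0585). Stc2, a secreted glycoprotein, rose 2.05-fold (1.03 ± 0.13) and the early response gene Ier3 2.04-fold (1.03 ± 0.15). Stc2 lost its call without untreated replicate 8 (adjusted p = 0.058), and Ier3 without HCA replicate 4 or untreated replicates 5, 6 or 8. Ddit3, the stress-induced factor CHOP, had a change of 0.60 ± 0.12 and missed the threshold (adjusted p = 0.0562), as did Ppp1r15a, which returns eIF2 to its active form (0.54 ± 0.12, adjusted p = 0.09). The list members Atf3, Trib3 and Sesn2 were detected on none of the 8 arrays and were not tested.

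Of the amino acid transporters 6 of 11 tested members were called higher, against 0.511% of all tested genes, and none lower. The median change was 0.73 (0.81 on chip 2, 0.61 on chip 3). The other 5 missed the threshold, with changes from -0.15 (Slc7a8) to 0.49 (Slc38a2). Without HCA replicate 1, 5 were called, and 5 of 10 without Slc1a5, which passed the filter only through the HCA arrays. Slc7a3, a carrier of arginine and lysine, had 10.05, 10.02, 10.06 and 10.04 with HCA and 8.89, 8.89, 8.93 and 9.07 without. These were among the tightest groups measured, with an SD of 0.02 for HCA, and the rise was 2.14-fold (1.10 ± 0.07, adjusted p = 0.00018). Slc6a9, a glycine transporter, had 10.19, 10.20, 10.18 and 10.41 with HCA and 8.85, 9.05, 9.20 and 8.96 without, a rise of 2.34-fold (1.23 ± 0.09, adjusted p = 0.000416). Slc7a5 and Slc3a2, the light and heavy chains of the large neutral amino acid transporter, rose 1.99-fold (1.00 ± 0.09, adjusted p = 0.00129) and 1.65-fold (0.73 ± 0.09, adjusted p = 0.00548). Slc1a4, a carrier of alanine, serine and cysteine, rose 1.81-fold (0.86 ± 0.10, adjusted p = 0.00619). Slc1a5, a glutamine carrier, was detected on the 4 HCA arrays and on no untreated one, and its rise was at least 1.24-fold (adjusted p = 0.0467, lost without any one of the 8 arrays). A fold given as "at least" is measured against the dimmest detected probe of each untreated array. Slc7a11, the subunit of the exchanger at which HCA competes with cystine, was detected on none of the 8 arrays.

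Of the enzymes of amino acid synthesis and one-carbon metabolism 7 of 12 tested members were called higher and none lower. Over all tested genes 0.511% were called higher. The median of the list was 0.65 (0.71 on chip 2, 0.64 on chip 3), and without HCA replicate 1 again 7 members were called. Several act in mitochondrial folate metabolism. Beside Mthfd2 these were Mthfd1l, which rose 1.90-fold (0.93 ± 0.09, adjusted p = 0.00177), Shmt2, which rose 1.75-fold (0.81 ± 0.09, adjusted p = 0.00343), and Aldh1l2, which rose 1.61-fold (0.69 ± 0.10, adjusted p = 0.0196), a call lost without HCA replicates 3 or 4 or any one untreated array. Gpt2, the mitochondrial alanine transaminase, rose 1.80-fold (0.84 ± 0.08, adjusted p = 0.00177), and Psat1, of serine synthesis, 1.5-fold (0.58 ± 0.07, adjusted p = 0.00656). Asns, asparagine synthetase, lay at 11.13, 10.87, 10.78 and 10.78 with HCA and at 10.17, 10.13, 10.21 and 10.00 without. The groups did not overlap, and the rise was 1.70-fold (0.76 ± 0.09, adjusted p = 0.00605), with a change of 0.94 ± 0.15 on a further probe. Phgdh, the first enzyme of serine synthesis, had a change of 0.61 ± 0.14 (adjusted p = 0.107).

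Of the cytosolic tRNA synthetases, which load tRNAs with amino acids, 2 of 12 tested members were called higher and none lower (median 0.29). Over all tested genes 0.511% were called higher. Cars, the cysteine enzyme, lay at 10.44, 10.29, 10.05 and 10.19 with HCA and at 8.99, 9.17, 9.12 and 9.13 without. It rose 2.20-fold (1.14 ± 0.09, adjusted p = 0.000802). Aars, the alanine enzyme, rose 1.48-fold (0.56 ± 0.09, adjusted p = 0.0319), a call that was lost without HCA replicates 2, 3 or 4 or untreated replicates 5, 6 or 8. Of the 9 tested mitochondrial tRNA synthetases none was called, with a median of -0.06 and changes from -0.19 to 0.13. Taken as 1 set, the regulators, transporters, synthetic enzymes and cytosolic synthetases had 51 tested members. Of these 25 were called higher (49.0%) and none lower, or 24 of 50 without Slc1a5, against 0.511% higher over all tested genes. The set made up 25 of the 38 higher calls. The lists were chosen with earlier results of these data known, so these counts are descriptions.

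**Figure D3:**
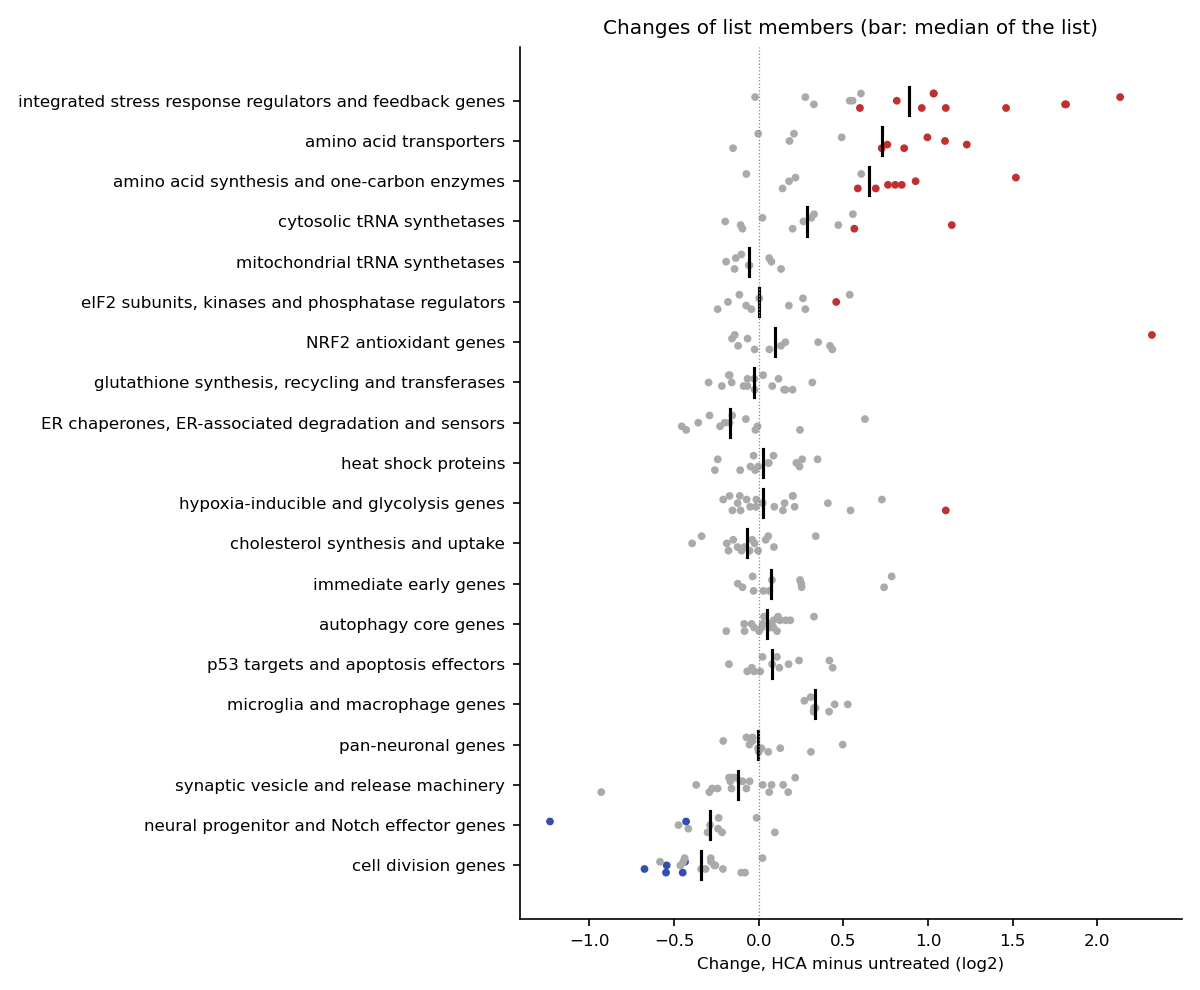
Each point is a tested member of a gene list, placed by its change with HCA (log2), red where called higher, blue where called lower and grey where not called, with a black bar at the median of the list. The upper lists reach medians of 0.89, 0.73 and 0.65, glutathione genes and most other lists centre near 0, and the median of the cell division genes is -0.34.

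Heme oxygenase had the greatest rise of the called genes and the widest spread among their HCA arrays. Hmox1, which breaks down heme to biliverdin, iron and carbon monoxide, lay at 10.59, 9.52, 9.13 and 10.69 on the HCA arrays and at 7.43, 8.17, 7.48 and 7.57 on the untreated ones. HCA replicates 1 and 4 were the higher pair, the only untreated array above 8 was replicate 6, and the groups did not overlap. The rise was 5.00-fold (2.32 ± 0.34, adjusted p = 0.0188), 2.26 on chip 2 and 2.39 on chip 3. Its call was lost when HCA replicate 1 (adjusted p = 0.0658) or any 1 of the 4 untreated arrays was left out, with changes between 2.00 and 2.62 over the 8 fits.

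No other NRF2 gene was called, so that 1 of 12 tested members was called higher (median 0.10, 7 changes above 0). In a fit of the 16 arrays of both genotypes on chips 2 and 3, 2 of the 12 were called higher. Gclm, of glutathione synthesis, had 8.86, 9.00, 8.76 and 8.89 with HCA and 8.70, 8.69, 8.61 and 8.87 without. The groups overlapped, and the change of 0.16 ± 0.09 had a 95% interval from -0.04 to 0.36 (adjusted p = 0.46). Me1, which makes NADPH, had a change of 0.43 ± 0.12 (adjusted p = 0.144) and was called higher in 2 of 25 alternative fits. Nqo1 was detected on 1 array of each group and not tested. Of 17 tested genes of glutathione synthesis, recycling and transfer none was called, and the changes ran from -0.30 to 0.32 around a median of -0.03. Iron and heme genes had 1 call among 12, again Hmox1, which stands on both lists. Of the metallothioneins and zinc exporters Mt3, a neural metallothionein, was called lower (change of -0.51 ± 0.09, adjusted p = 0.0442), and without HCA replicate 1 it was not (adjusted p = 0.0791); its call held only in the fit without untreated replicate 5.

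Several other stress programs had no called gene in the main fit. The fit of 16 arrays called 1 ER gene higher and 2 lower. It also called higher 1 heat shock gene, 1 p53 target or apoptosis gene, 2 immediate early genes and 3 hypoxia and glycolysis genes, but no autophagy or cholesterol gene. Among the ER chaperones and degradation genes 0 of 13 were called, with a median of -0.17, 11 changes below 0 and the greatest rise in Herpud1 (0.63 ± 0.13, adjusted p = 0.0736). Without HCA replicate 1, 1 of these 13 was called higher. No heat shock gene (14 tested, median 0.03), p53 target or apoptosis gene (13, median 0.08), autophagy gene (20, median 0.05) or cholesterol gene (16, median -0.07) was called. Cdkn1a, the cell cycle inhibitor induced by p53, had 9.47, 9.18, 9.05 and 9.32 with HCA and 8.88, 8.88, 8.81 and 8.71 without, groups that did not overlap, and missed the threshold (0.44 ± 0.10, adjusted p = 0.0911). Of 12 immediate early genes none was called, and Jun, of the AP-1 family, narrowly missed the threshold (0.74 ± 0.14, adjusted p = 0.0505). Of 21 hypoxia and glycolysis genes 1 was called, Vegfa, which the stress list also holds, and P4ha1 and Hk2 had changes of 0.73 ± 0.17 and 0.54 ± 0.13 (adjusted p = 0.111 and 0.114). Of the eIF2 subunits, kinases and phosphatase genes Eif2s2, a subunit of eIF2, was the 1 called of 11 (0.46 ± 0.08, adjusted p = 0.0442, lost without any one of the 8 arrays). Respiratory chain (38 tested), ribosomal (48) and proteasome genes (28) had no call and medians between -0.06 and 0.02. Of the 41 lists examined 27 held no called gene.

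**Figure D4:**
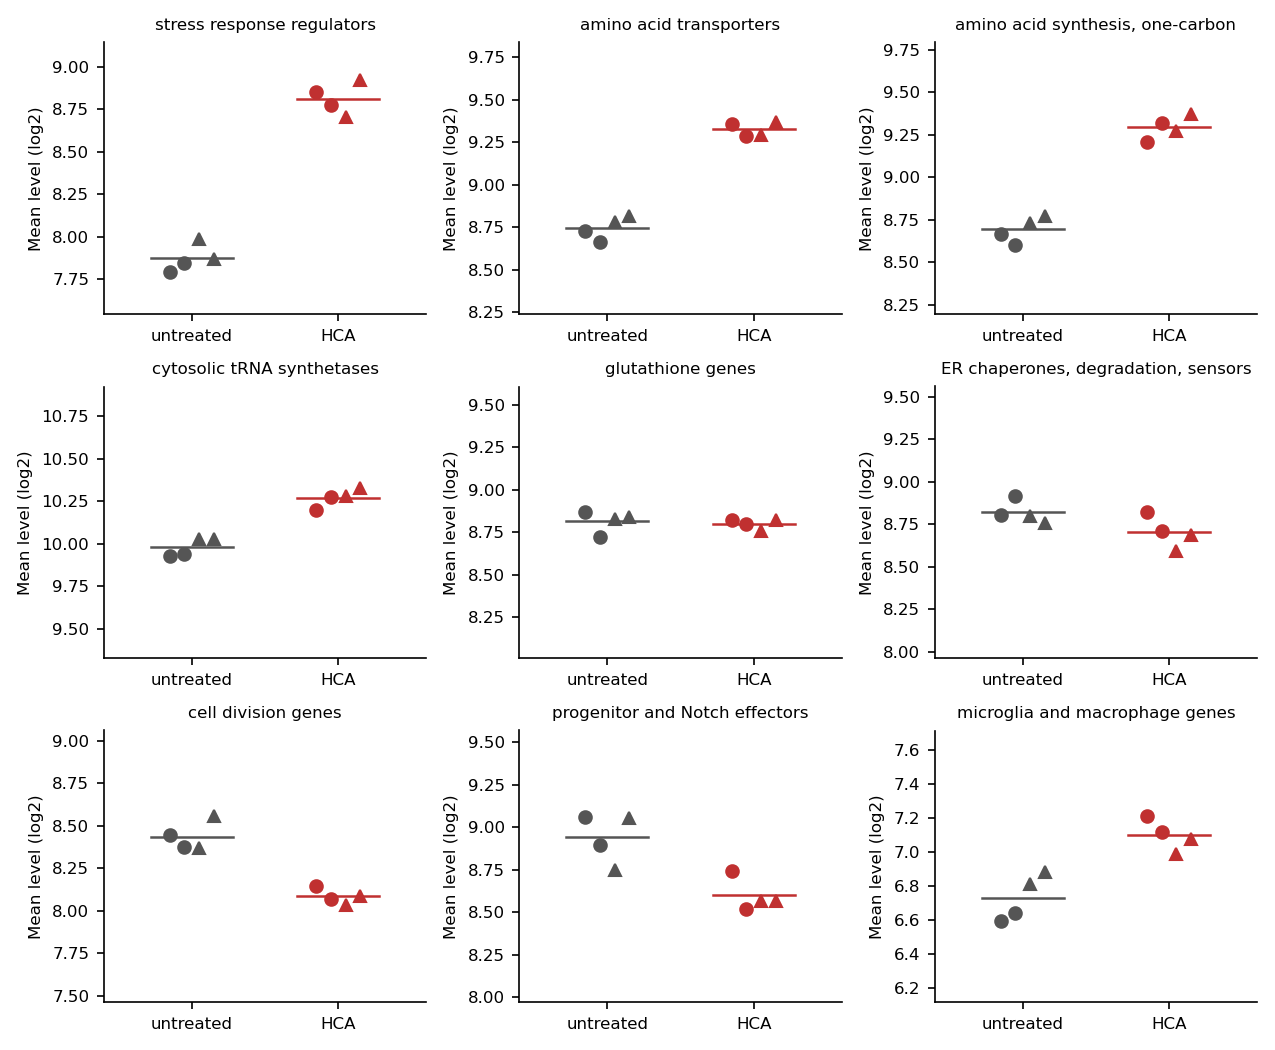
Mean level of the tested members of 9 gene lists on each of the 8 arrays, in log2 normalized signal, untreated in grey and HCA in red, chip 2 as circles, chip 3 as triangles, lines at the group means and a span of 1.6 on every vertical axis. The 4 HCA arrays lie above the 4 untreated ones in the stress, amino acid, tRNA synthetase and microglia lists and below them in the cell division and progenitor lists, and the groups overlap in the glutathione and ER lists.

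The genes that fell include single factors of neural progenitors and glia and genes of cell division. RNA was taken from whole cultures, so fewer cells of a type and less RNA per cell cannot be told apart. Hes5, a repressor of neuronal differentiation downstream of Notch, lay at 7.81, 7.17, 7.68 and 7.89 with HCA and at 9.18, 8.62, 8.51 and 9.17 without. The groups did not overlap, and the fall was 2.35-fold (-1.23 ± 0.20, adjusted p = 0.0328). The change kept its sign, between -1.40 and -1.07, in the 8 fits that left out an array, but the call held only in the fit without untreated replicate 7 (adjusted p up to 0.117). Nrarp, a feedback inhibitor of Notch signalling, fell 1.72-fold (-0.78 ± 0.11, adjusted p = 0.0135), a call lost without untreated replicates 6 (adjusted p = 0.0603) or 8 (adjusted p = 0.0736).

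Sox21, a transcription factor of neural progenitors, lay at 9.40, 9.39, 9.25 and 9.36 with HCA and at 10.42, 10.04, 10.08 and 10.34 without. The HCA arrays were tight and all lower, a fall of 1.83-fold (-0.87 ± 0.10, adjusted p = 0.00579). Olig1, a factor of the oligodendrocyte lineage, fell 1.68-fold (-0.75 ± 0.14, adjusted p = 0.0467). It was the 1 called of 4 tested oligodendrocyte genes, whose median was -0.07, and Cspg4 and Cnp had changes of 0.30 and 0.12. Slc1a3, a glutamate transporter of radial glia and astrocytes, fell 1.35-fold (-0.43 ± 0.08, adjusted p = 0.0441). Tril, an accessory protein of Toll-like receptors, fell 1.75-fold (-0.81 ± 0.09, adjusted p = 0.00343), and Bcan, the matrix proteoglycan brevican, 1.5-fold (-0.59 ± 0.10, adjusted p = 0.041). The calls of Olig1, Slc1a3 and Bcan held without HCA replicate 1 and were lost without any one of the other 7 arrays, with adjusted p up to 0.15, 0.164 and 0.138. Of 11 tested progenitor and Notch effector genes 2 were called lower, Hes5 and Slc1a3 (median -0.29), and 1 without HCA replicate 1. Over all tested genes 0.417% were lower.

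Retinoic acid genes moved in both directions. Cyp26b1, which clears retinoic acid, lay at 9.06, 9.43, 9.68 and 9.61 with HCA and at 10.31, 10.53, 10.36 and 10.22 without. HCA replicate 1 was the lowest, and the fall was 1.88-fold (-0.91 ± 0.13, adjusted p = 0.0188), -1.18 on chip 2 and -0.65 on chip 3. The call was lost without HCA replicate 4 or untreated replicates 5, 6 or 7 (adjusted p up to 0.0726). Rarb, a retinoic acid receptor that retinoic acid itself induces, rose 1.49-fold (0.58 ± 0.11, adjusted p = 0.0467), a call that was lost without any one of the 8 arrays (adjusted p = 0.0864 without HCA replicate 1). The other 3 tested members of that list were not called.

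Of 19 tested cell division genes 5 were called lower, against 0.417% of all tested genes, and none higher. Of the 19 changes 18 were below 0, with a median of -0.34 (-0.29 on chip 2, -0.37 on chip 3). Without HCA replicate 1, 3 were called, 2 without untreated replicate 5 and 1 without HCA replicate 2. Without any one of HCA replicates 3 and 4 or untreated replicates 6, 7 and 8, and also with median centring or all 24 arrays, 0 were called. Cdc20, which activates the anaphase-promoting complex, lay at 7.97, 8.32, 8.25 and 8.43 with HCA and at 8.70, 8.84, 9.01 and 9.12 without, a fall of 1.60-fold (-0.67 ± 0.10, adjusted p = 0.0184). Plk1, a mitotic kinase, fell 1.46-fold (-0.55 ± 0.09, adjusted p = 0.0244), and the others called were Birc5, Cenpa and Aurka, of the chromosome passenger complex, the centromere and the spindle poles. The call of Cdc20 was lost without HCA replicates 3 or 4 or untreated replicates 6, 7 or 8, that of Plk1 also without HCA replicate 2, and those of Birc5 and Aurka without any one of the 8 arrays. Mki67, the standard marker of dividing cells, had a change of -0.45 ± 0.11 (adjusted p = 0.121). Pif1, a DNA helicase outside the list, lay at 7.82, 7.73, 7.80 and 7.86 with HCA and at 8.43, 8.47, 8.43 and 8.43 without, the tightest groups among the lower genes, and fell 1.56-fold (-0.64 ± 0.07, adjusted p = 0.00366).

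The lists of neuronal genes held no call in the main fit, while Isl1, a factor of motor and striatal neurons outside these lists, was called higher. Of 12 tested pan-neuronal genes none was called and the median change was -0.00199, and among 20 synaptic vesicle genes none was called. Of these 20, 14 had changes below 0 (median -0.12), the lowest in Sv2b (-0.93 ± 0.19, adjusted p = 0.0736), and 2, Sv2b and Syn2, were called lower in the fit of 16 arrays. Their mean level was 9.49 to 9.72 on the HCA arrays and 9.74 to 9.80 on the untreated ones, which did not overlap. The median change was -0.18 on chip 2 and -0.04 on chip 3. Among 16 tested genes of excitatory cortical neurons none was called, though 1 was called lower in the fit of 16 arrays. Fezf2, a factor of deep-layer neurons, had a change of -0.52 ± 0.11 (adjusted p = 0.0797). All 8 tested microglia and macrophage genes had changes above 0, between 0.27 and 0.53, with a median of 0.33 (0.58 on chip 2, 0.15 on chip 3), and none was called. Their summed linear signal ran from 1491 to 1875 on the HCA arrays and from 1144 to 1419 on the untreated ones. Of the defining microglia markers Cx3cr1 was detected on all 8 arrays and Aif1 on none. C1qa was detected on 4 HCA and 2 untreated arrays, and Tyrobp on 3 HCA and 2 untreated arrays. The part of microglia in the other changes was not tested. Astrocyte genes had 1 call among 7, the transporter Slc1a3, and a median of -0.18. The Y-linked Eif2s3y lay at 9.54, 4.85, 5.07 and 8.32 with HCA and at 8.60, 4.98, 4.88 and 8.15 without, so 2 arrays of each group were high. The high arrays of the 2 groups came from the same array sets, and so did the low ones.

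The response was then set against that of Atf4 knockout neurons on the same chips, which asks how far it differs without Atf4. The 2 responses share no array, and knockout levels, knockout changes and differences come from 1 fit over the 16 arrays. The Atf4 probe was detected on all 8 wild-type and on none of the 8 knockout arrays, where its level lay between 4.73 and 5.24; whether the probe lies in the deleted stretch could not be settled from the sources used here. In knockout neurons 0 genes (0%) were called higher and 2 (0.0269%) lower, Csrp1 and the matrix protein gene Mgp, with limma at the same threshold. An unadjusted p under 0.05 was reached by 385 genes. The same fit of 16 arrays called 101 genes higher and 107 lower in wild type. Genes were kept by their detection on the wild-type arrays, so a gene detected only in knockout could not be called. The difference between the responses was called for 27 genes with a higher response in wild type, 0.363% of those tested, and for 4 with a lower one, 0.0538%. Of the 38 higher calls in wild type 23 also had this call, and the median change of the 38 was 0.81 in wild type and -0.09 in knockout. The 38 were chosen by wild-type arrays that also enter the difference. The overlap and the wild-type median are thus in part set by that choice, as for the other called genes compared below. The Y-linked Eif2s3y was high on all 8 knockout arrays (8.23 to 9.34). In wild type it was low on HCA replicates 2 and 3 and untreated replicates 6 and 7 (4.83 to 5.05, normalized over the 16 arrays). With Eif2s3y as a covariate the difference was called for 30 genes with a higher response in wild type and 3 with a lower one.

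Chac1 lay at 6.94, 6.40, 6.21 and 6.29 on the knockout HCA arrays and at 7.10, 7.04, 6.48 and 6.82 on the untreated knockout arrays, so its change there was -0.40 ± 0.15 and the difference between genotypes 2.53 ± 0.22 (adjusted p = 1.63e-05). For Eif4ebp1 the change in knockout was -0.09 ± 0.11 and the difference 1.90 ± 0.16 (adjusted p = 1.46e-05). For Mthfd2 these values were -0.13 ± 0.08 and 1.64 ± 0.11 (adjusted p = 2.72e-06). Ddit4 differed by 1.54 ± 0.20 (adjusted p = 0.00115), Slc7a5 by 1.23 ± 0.11 (adjusted p = 2.72e-05), Slc6a9 by 1.23 ± 0.13 (adjusted p = 0.000214) and Stc2 by 1.19 ± 0.18 (adjusted p = 0.00392). Nupr1, Atf4 and Slc1a5 also had the call but were detected on no knockout array, so their knockout change is one between background values and the size of the difference cannot be read. Without these 3, 24 genes had a higher response in wild type. Over the set of 51 genes of stress regulation, amino acids and tRNA charging 22 had this call, against 0.363% of all tested genes. Of the 22, 20 were among the 25 that rose, and without the same 3 genes the counts were 19 and 17. The call was also reached by Ddit3 (0.80 ± 0.16, adjusted p = 0.0427), Ppp1r15a (0.86 ± 0.13, adjusted p = 0.00575) and Jun (0.87 ± 0.17, adjusted p = 0.0421), whose rise in wild type missed its own threshold.

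For other raised genes a difference was not called. Hmox1 lay at 7.56, 8.09, 7.95 and 7.89 in knockout neurons with HCA and at 6.71, 7.03, 6.89 and 7.27 without, groups that did not overlap. Its change there was 0.90 ± 0.29 against 2.32 ± 0.34 in wild type, and the difference of 1.46 ± 0.41 had a 95% interval from 0.58 to 2.34 and an adjusted p of 0.224. Cars (difference 1.29 ± 0.30), Slc7a3 (1.00 ± 0.23) and Jdp2 (1.07 ± 0.24) had adjusted p of 0.111, 0.111 and 0.0987. Slc7a3 was detected on 5 of the 8 knockout arrays.

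A difference between genotypes was called for 4 of the 31 lower genes, against 23 of the 38 higher ones. The lower genes also changed less in wild type, where the median of the higher ones was 0.81. The 31 had a median change of -0.55 in wild type and -0.14 in knockout, where the median of all tested genes was 0.00106. In knockout 26 of the 31 also had a change below 0, against 10 of the 38 higher genes with a change above 0. Hes5 had a change of 0.25 ± 0.17 in knockout and a called difference of -1.51 ± 0.24 (limma, adjusted p = 0.00683). Its levels ran from 7.11 to 7.54 on the knockout HCA arrays and from 6.98 to 7.17 on the untreated knockout arrays, which overlap. In wild type the mean level was 8.87 untreated and 7.64 with HCA (normalized over 8 arrays). Untreated knockout arrays thus lay below both wild-type means before any HCA. The part of this low starting level in the difference was not tested. Nrarp (-0.65 ± 0.13, adjusted p = 0.0421), Cdca3 and Aif1l were the others called. Cyp26b1 had a change of -0.55 ± 0.12 in knockout and a difference of -0.36 ± 0.17 (adjusted p = 0.636). Csrp1, a LIM protein of the cytoskeleton, was called lower in both genotypes, by -0.60 ± 0.11 in wild type and -0.85 ± 0.12 in knockout (adjusted p = 0.0119), the call in wild type holding only in the fit without untreated replicate 7 of those that left out an array. In the fit of all 24 arrays the wild-type change was -0.03 (adjusted p = 0.991).

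**Figure D5:**
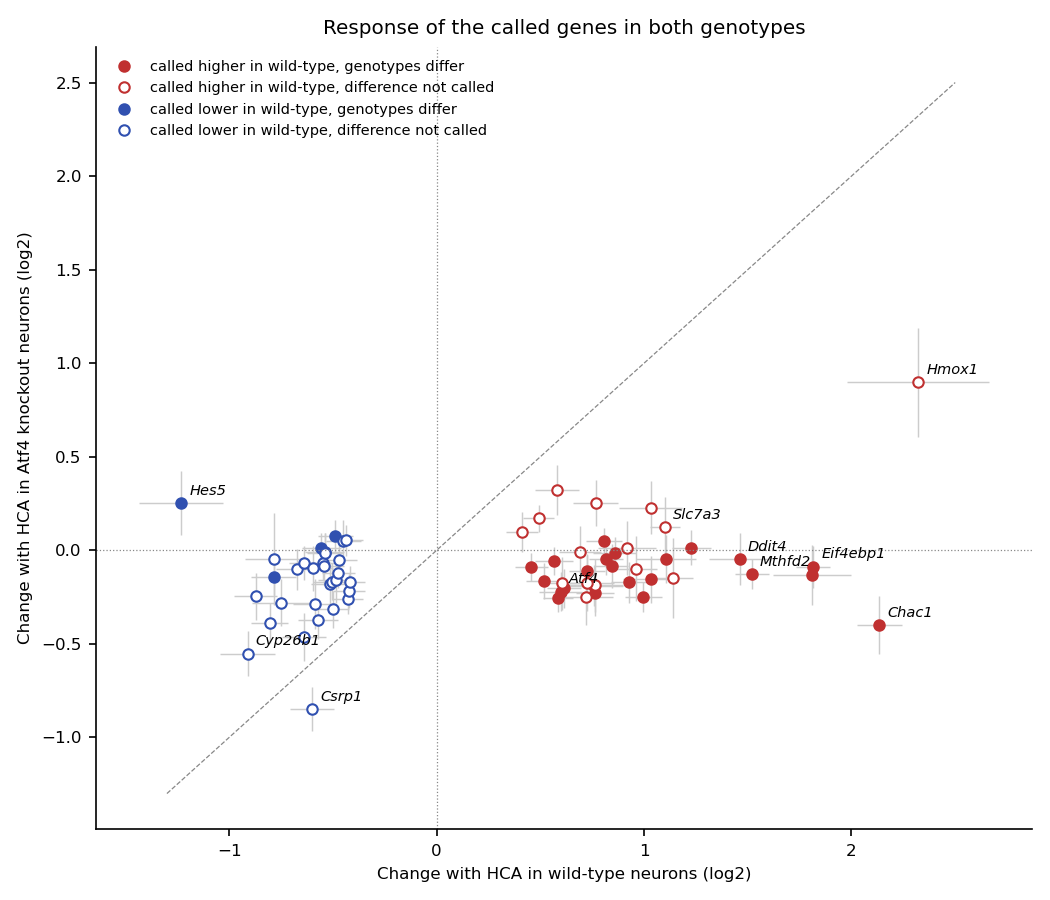
Change with HCA in wild-type (horizontal axis) against Atf4 knockout neurons (vertical axis) for the 69 genes called in wild type, both log2 with bars of 1 SE, filled where the difference between genotypes was called, and a dashed line of equal response. The higher genes lie along 0 in knockout (median -0.09), with Hmox1 at 0.90 above the others.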

How the data were processed

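Illumina Mouse Ref-8 arrays were run on RNA of 24 samples, and 8 wild-type and 8 knockout arrays of chips 2 and 3 were used, grouped by their labels. The authors deposited the average signal of each of 24048 probes, a linear intensity to which no normalization was applied, from BeadStudio 1.5.1.3 per the file headers. The detection score deposited beside it is a fraction from 0 to 1, per the file headers from the same software, and was read as 1 minus a detection p. The authors also deposited log2 values of 23983 probes, made with limma per the submitters' processing notes. They equal quantile-normalized log2 raw signals to within 5e-14 and were used as an alternative.

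Background mean and SD were read from the quantiles of each array's detection values, because limma's neqc gave 1 array (wild-type HCA replicate 3) an SD of 240, where the other 7 had 17.7 to 22.3. Normexp correction with an offset of 16, quantile normalization, lmFit and eBayes followed (limma 3.58.1, R 4.3.3), with terms for group and chip. The wild-type response was normalized and fitted over 8 arrays (5 residual degrees of freedom), the difference between genotypes over 16 (11). Probes detected at p under 0.05 on at least 4 of the 8 wild-type arrays were kept. Of the probes 20917 had 1 gene symbol, 1 several and 3130 none, and 971 of the unnamed were kept in the filter but are not reported. Every adjusted p is limma's, adjusted over all 7435 genes.

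Gene lists, named genes and motifs were chosen with earlier results of these data known, so their counts are descriptions. The text names Atf4, the 15 highest and 15 lowest calls, up to 4 genes of each list by p, 10 genes whatever their value and the leading genotype differences, and other genes in the text were picked once their values were known. The code was tested on simulated data. Precision is limited by the 4 arrays per group. Alternatives changed the background correction, scaling, filter, probe summary, covariates and arrays, and the closing section gives their effect.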

Additional observations from a re-analysis of the deposited data

Results flagged for a closer look

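Among the values named in the text, 18 had 1 array of a group of 4 far from the other 3 by Dixon's ratio of gap to range (above the 95% critical value). Chance alone gives about 1 such group in 20, and both groups of every named gene were examined, beside measures of the arrays. Many of the 18 can thus arise by chance. HCA replicate 3 had the highest mean raw signal of its group, 537, and HCA replicate 1 the lowest mean correlation with the other 7 wild-type arrays, 0.973. HCA replicate 1 was also low for Birc5 (8.22), the neuronal genes Elavl3 (11.51) and Syn1 (10.72) and Safb2 (5.92), and high for Me1 (8.85) and Ovgp1 (9.32). HCA replicate 2 was high for Eif4ebp1 (11.27), HCA replicate 3 stood apart for Cspg4 (7.64), and HCA replicate 4 was high for Slc6a9 (10.41). Of the untreated arrays, replicate 5 was high for Me1 (8.34) and low for Mt3 (9.81) and Psat1 (10.03). Replicate 7 stood apart for Isl1 (9.12) and Mns1 (7.04), and replicate 8 for Arid5a (6.26) and Herpud1 (7.86).

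The response to HCA differed between wild-type and Atf4 knockout neurons for 30 of the named genes (limma interaction contrast, adjusted p under 0.05). Given as the wild-type minus the knockout change in log2, it was above 1 for Chac1 (2.53), Nupr1 (1.97), Eif4ebp1 (1.90), Mthfd2 (1.64), Ddit4 (1.54), Slc7a5 (1.23), Slc6a9 (1.23), Stc2 (1.19), Vegfa (1.14) and Mthfd1l (1.12). It was between 0.8 and 1 for Asns (0.98), Gpt2 (0.95), Slc1a5 (0.94), Cebpb (0.87), Jun (0.87), Slc1a4 (0.86), Ppp1r15a (0.86), Slc3a2 (0.83), Psat1 (0.83), Cyb5r1 (0.83) and Atf4 (0.83). Smaller differences were those of Ddit3 (0.80), Shmt2 (0.77), Rem2 (0.70), Aars (0.62) and Eif2s2 (0.54). For Nupr1, Slc1a5 and Atf4, detected on no knockout array, these sizes rest on background values in knockout. Below 0 were Hes5 (-1.51), Nrarp (-0.65), Aif1l (-0.58) and Cdca3 (-0.57).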

How the results depend on the processing

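The 69 calls kept their sign in each of the 25 alternatives in which they were tested, but their number did not hold. Higher and lower calls (38 and 31) became 65 and 63 without background correction, 101 and 107 in a fit of the 16 arrays, 84 and 58 in one of all 24 (which kept 31 and 2 of the main calls), and 2 and 0 on chip 2 alone or 3 and 0 on chip 3 alone. Lower calls fell to 7 with median centring, 14 with normalization over all 24 arrays, 15 with detection on at least 2 arrays and 12 with no detection filter, and rose to 47 with array weights. Leaving out 1 array gave 19 to 34 higher and 3 to 17 lower calls. Calls of the difference between genotypes (27 and 4) became 10 and 0 with median centring, which moved the median difference of all genes by 0.19, and 57 and 8 with all 24 arrays. The 4 lower ones became 1 with detection on at least 2 arrays, with no detection filter or with no chip term, and leaving out 1 of the 16 arrays gave 20 to 29 and 1 to 4. With the replicate number as a block 21 and 2 were called. Whether the numbers or the array sets pair the samples was not settled, and the main fit held no term for the array set. Deviations of same-numbered arrays of the genotypes correlated between -0.0946 and 0.531 over 8 pairs. Wild-type HCA and untreated arrays of the same array set correlated between 0.068 and 0.542 over 4 pairs. The cause of these shifts was not tested. Probes near background limit what could be seen: 46.6% of the named genes were tested. With the neqc background, the deposited values, detection on every array, the mean of the probes, no chip term, the array set as a block or Eif2s3y as a covariate, higher calls numbered 37 to 53 and lower calls 25 to 44, and the array set block kept 54 of the 69 main calls.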

Other observations

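The other called genes belong to no raised list. Among the higher were Isl1, a homeobox factor of motor and striatal neurons (change 0.49, adjusted p = 0.0237 with limma), Arid5a, an RNA-binding regulator (0.76, adjusted p = 0.0442), Eps15, an endocytic adaptor (0.72, adjusted p = 0.0467), and Rem2, a small GTPase that restrains calcium channels (0.52, adjusted p = 0.0334). Cyb5r1 (0.61, adjusted p = 0.0114), Plekhh3 (0.61, adjusted p = 0.0118), Ovgp1 (0.77, adjusted p = 0.0171) and Igsf9 (0.41, adjusted p = 0.0467) were also called. Rhbdd1 and Safb2 were detected on no untreated array and entered the test only through the HCA arrays, where they lay at least 1.46-fold and at least 1.32-fold higher.

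Further lower genes act in DNA synthesis and mitosis although none is on the cell division list: Tk1, thymidine kinase (change -0.64, adjusted p = 0.0334), the kinesin Kif2c (-0.54), Cdca5, which holds sister chromatids together (-0.50), the cell cycle factor E2f2 (-0.48), the midzone protein Prc1 (-0.47) and the centromere protein Cenpp (-0.42). The others were the glial factor Sox8 (-0.47), Parva, an adaptor of cell adhesion (-0.60), the glucose carrier Slc2a6 (-0.57), Mns1 (-0.79), Ankrd24 (-0.54), Lrig3 (-0.50) and Tmem25 (-0.42). When each of the 8 arrays was left out in turn, Cyb5r1 and Plekhh3 kept their calls in 5 of the 8 fits and every other gene of these paragraphs in 0 to 2. These genes were named after their values were seen.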
